A study of Mus musculus with 24 samples.

Results

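Messenger RNA bound to the ribosomes of serotonin cells was compared with the total RNA of the same dissected tissue in wild-type mice. The comparison took the 9 wild-type libraries that remained, of 24 in the series, after repeat runs and 1 input labelled an outlier were left out: 5 libraries of translating ribosome affinity purification (TRAP) and 4 of input RNA. Input libraries 2 and 3 were alike and were summed, which left 3 inputs (1, 2/3 and 5). All genes with enough counts were tested, 12995 of the 24062 in the files.

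The wild-type mice were taken at postnatal day 9, and tissue just behind the thalamus was used after the cortex had been removed. The study describes 5 wild-type and 5 knockout brains as the source of both kinds of RNA, with a TRAP allele for serotonin cells, so input RNA would come from carriers of the allele too. Strain and sex are not given in the sources used here. Libraries labelled celf6 knockout (KO), 5 TRAP and 5 input of the same age, lack the RNA-binding protein CELF6 by their labels and served only to read the wild-type calls in other samples. Before library preparation the cDNA was amplified (NuGEN Ovation 2).

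In TRAP, a tagged ribosomal protein is made in 1 cell type, and antibodies to the tag pull down ribosomes with the mRNA they hold. The allele used here is known as a transgene in which regulatory DNA of Slc6a4, the serotonin transporter gene, drives a tagged L10a protein, so the level of Slc6a4 shares its regulation with the tag. Serotonin neurons of the raphe nuclei make serotonin from tryptophan with tryptophan hydroxylase (Tph2) and aromatic amino acid decarboxylase (Ddc), load it into vesicles with Slc18a2, and take it back up through Slc6a4. The hydroxylase needs the cofactor tetrahydrobiopterin, whose synthesis starts with Gch1.

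The wild-type libraries held 3925381 to 6751468 counts in TRAP, 5713834 in input 1, 11205985 in the summed input 2/3 and 3390423 in input 5. Inputs 2 and 3 had r = 0.994 over log2 CPM, counts scaled to a common library size, and a chi-square per gene of 1.36, against r of 0.780 to 0.875 and 26.2 to 74.6 in 15 other pairs within a group. They differed by less than the repeat run of a library did from its first run, with 2.55 for input 3 and 2.17 for TRAP 3, and were counted as 1 sample. Input 5 stood apart: it held both Xist, the RNA of the inactive X chromosome, at 37.1 CPM and transcripts of 4 Y-linked genes at 9.96 CPM in sum, while TRAP 5 had 0.481 and 72.1 CPM. Each of the other 7 libraries held mainly 1 of the 2 kinds. Results are therefore also given without input 5 where that ends a call or moves a count by over 1.5 times.

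Of the 12995 genes, 77 were higher in TRAP (0.593%) and 83 were lower (0.639%) by edgeR's quasi-likelihood test at an adjusted p below 0.05, which makes 160 genes or 1.23%. For the higher genes the log2 difference, TRAP minus input, ran from 1.09 to 6.73 with a median of 2.08, against -8.53 to -0.92 with a median of -1.69 for the lower ones. The median over all genes was 0.02. The shares of 0.593%, 0.639% and 1.23% are the background for every gene list below. No call or 1 call in a short list says little about the list. The TRAP and input libraries did not overlap for 72 of the 77 higher and 67 of the 83 lower genes, against 3.68% and 4.06% of all genes tested. Both sequencing runs gave the same direction for every one of the 160 and for 7335 of the 12995 genes tested. The 160 were picked by a test on these same libraries, and run 2 has input 5 as its only input. Counts of calls depended on which library was in the fit: leaving out 1 of the 8 gave 33 to 164 higher and 11 to 206 lower genes. The fewest came without input 1 (33 and 11), the most without TRAP 1 (164 and 206), and the fit without input 5 gave 48 and 28. Of the 160 genes, 25 higher and 8 lower ones passed in all 8 of these fits, and 59 remained called without input 5. Beside the genes for which that value is given further on, those described here that lost their call without input 5 were, among the higher ones, Apoa2, Bex2, Hmx2, Hras, Trim21, Uchl1 and Usp21 (edgeR adjusted p of 0.0564 for Bex2 to 0.222 for Hras). Among the lower ones they were Bcas1, Bsn, Celf4, Cnn1, Elf4, Gad2, Pld1, Ptgds, Rmrp, Slc6a2, Tekt4 and Zfp703 (0.0537 for Celf4 to 0.163 for Slc6a2). Fewer cells of a type and less RNA per cell cannot be told apart in such bulk RNA.

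**Figure D1:**
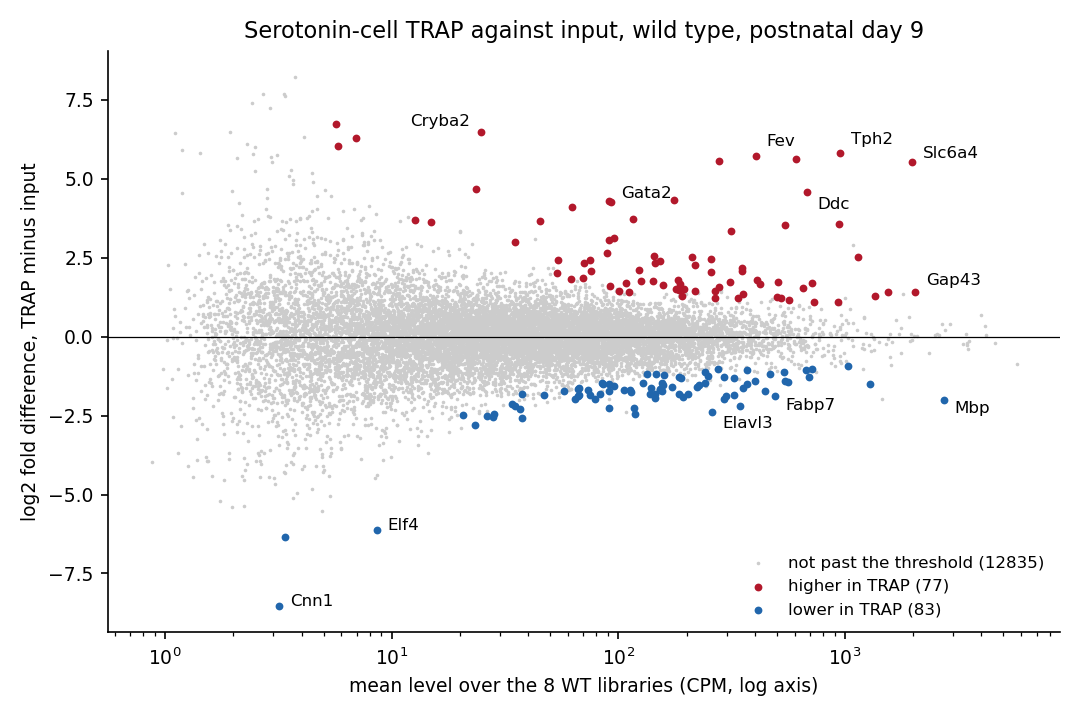
Each point is 1 of 12995 genes, with its mean level over the 8 wild-type libraries (CPM, log axis) against the log2 difference, TRAP minus input. Red points are the 77 genes higher in TRAP, blue points the 83 lower ones, and grey points the 12835 that did not pass. Tph2, Slc6a4 and Fev stand at high level and at differences above 5, and Mbp is the most abundant gene among the lower ones named.

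Enzymes of serotonin synthesis and of its cofactor were higher in TRAP. Of 9 genes tested, 5 were higher in TRAP (Tph2, Ddc, Gch1, Gchfr and Pcbd1) and none was lower, with a median log2 difference of 1.78 against 0.02 over all genes. Tph2, the enzyme that sets the pace of serotonin synthesis in the brain, stood at 1910, 1900, 1460, 1210 and 1090 CPM in TRAP 1 to 5 and at 22.0, 17.5 and 41.7 CPM in inputs 1, 2/3 and 5. The lowest TRAP library was thus far above the highest input. The log2 difference was 5.83 ± 0.39 (SE; edgeR adjusted p = 2.29e-07), or 56.8-fold; it was 6.45 among the libraries of sequencing run 1 (replicates 1 to 3) and 4.77 in run 2 (replicates 4 and 5). Ddc, which converts the hydroxylated tryptophan to serotonin, had 912, 1590, 1250, 651 and 905 CPM in TRAP and 47.0, 20.9 and 66.6 CPM in input, a log2 difference of 4.57 ± 0.43 (edgeR adjusted p = 7.26e-06). Gch1, the first enzyme of the cofactor's synthesis, had 371, 642, 536, 285 and 364 CPM against 12.3, 5.11 and 10.6 CPM, a difference of 5.57 ± 0.42 (edgeR adjusted p = 5.51e-07). Gchfr encodes the protein through which the cofactor feeds back on the Gch1 enzyme. It reached 447, 1500, 1120, 800 and 913 CPM in TRAP against 26.6, 11.8 and 19.9 CPM, a difference of 5.64 ± 0.45 (edgeR adjusted p = 8.66e-07). In these genes the 2 kinds of RNA did not overlap, and TRAP 1 had the lowest Gchfr.

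Recycling and side enzymes of the cofactor differed less. Pcbd1, a dehydratase that helps regenerate tetrahydrobiopterin, had 147, 247, 230, 110 and 123 CPM in TRAP and 50.9, 46.0 and 50.1 CPM in input, a log2 difference of 1.78 ± 0.33 (edgeR adjusted p = 0.0107). Pts and Qdpr, enzymes of synthesis and recycling, did not pass, with differences of 1.09 ± 0.42 (edgeR adjusted p = 0.247) and 0.92 ± 0.39 (edgeR adjusted p = 0.303). Neither did Pcbd2 (0.97) or Spr (-0.57), whose level was at most 6.25 CPM in any library. Tph2, Ddc, Gch1 and Gchfr passed in all 8 fits that left out 1 library. Pcbd1 passed in 6 and lost its call without input 1 (edgeR adjusted p = 0.0851) and without input 2/3 (0.0764).

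Genes of monoamine transport and breakdown were also higher, 4 of 6 tested (Slc6a4, Slc18a2, Slc22a3 and Maob), with a median log2 difference of 3.36 and none lower. Slc6a4 stood at 2220, 4380, 4200, 3590 and 1200 CPM in TRAP and at 84.4, 50.8 and 65.3 CPM in input. TRAP 5 was the lowest and TRAP 2 the highest. The log2 difference was 5.54 ± 0.42 (edgeR adjusted p = 5.51e-07). As the gene whose regulatory DNA drives the tag, its level is tied to the choice of cells. Slc18a2, the vesicular monoamine transporter, had 285, 279, 219, 426 and 150 CPM against 17.3, 16 and 7.78 CPM, a difference of 4.34 ± 0.43 (edgeR adjusted p = 1.17e-05). Slc22a3, a low-affinity monoamine transporter, had 111, 127, 194, 194 and 76.0 CPM against 12.9, 3.75 and 5.29 CPM, a difference of 4.31 ± 0.52 (edgeR adjusted p = 0.000161). Both were separated from input in every library.

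Of the monoamine oxidases, which degrade serotonin, Maob passed and Maoa did not. Maob had 95.3, 166, 100, 75.3 and 99.5 CPM in TRAP and 17.1, 7.5 and 41.4 CPM in input, a log2 difference of 2.42 ± 0.51 (edgeR adjusted p = 0.022). Its call was lost without input 1 (edgeR adjusted p = 0.148) and without input 2/3 (0.109), while without input 5, the library with the highest input level, the difference was 3.31 (0.00356). Maoa had 92.0 to 375 CPM in TRAP and 60.6 to 108 CPM in input, a difference of 1.4 ± 0.36 (edgeR adjusted p = 0.0665). The transporter Slc29a4 had a difference of 0.24 (edgeR adjusted p = 0.833).

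Among 10 transcription factors of serotonin neuron identity that were tested, Fev and Gata2 were higher in TRAP and none was lower. Fev, an ETS factor made almost solely in serotonin neurons of the brain, had 358, 1230, 968, 358 and 275 CPM in TRAP and 5.53, 13.6 and 14.3 CPM in input. TRAP 2 and 3 were the highest and TRAP 5 the lowest. The log2 difference was 5.72 ± 0.56 (edgeR adjusted p = 1.07e-05). Gata2, a zinc finger factor of rostral serotonin neurons and of some GABA neurons, had 148, 224, 152, 98.0 and 96.8 CPM against 10.2, 6.39 and 6.22 CPM, a difference of 4.26 ± 0.40 (edgeR adjusted p = 7.26e-06). Both passed in all 8 fits that left out 1 library.

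None of the other identity factors passed. Gata3 had a log2 difference of 1.28 ± 0.37 (edgeR adjusted p = 0.11), with 55.5 to 98.9 CPM in TRAP and 19.0 to 45.7 CPM in input. Lmx1b, a LIM homeobox factor that serotonin neurons need, had 7.15, 53.8, 43.7, 20.2 and 6.52 CPM in TRAP. Its input levels were 0.00, 0.511 and 41.7 CPM, so that input 5 alone reached the TRAP range. The difference was 2.53 ± 1.87 (edgeR adjusted p = 0.613). En1 had a difference of 1.16, Nkx6-1 of 1.58, En2 of 0.36, Insm1 of 0.20 and Nkx2-2, a factor shared with oligodendrocyte precursors, of -1.69. Foxa2 was at 0 in TRAP and was not tested.

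**Figure D2:**
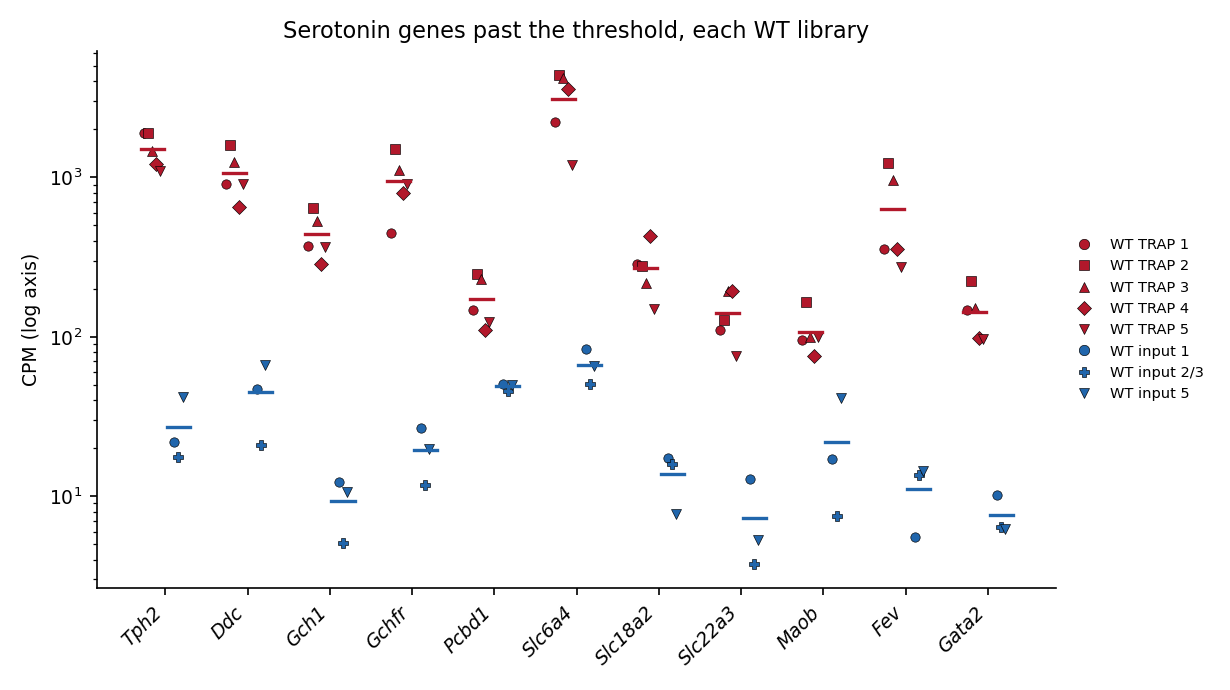
Levels (CPM, log axis) of the 11 serotonin genes past the threshold in each wild-type library, with TRAP in red and input in blue. Symbols give the replicate and bars the group mean. TRAP and input do not overlap for any of the 11 genes, with Tph2 between 1090 and 1910 CPM in TRAP and between 17.5 and 41.7 CPM in input. The genes were picked by a test on these same libraries, and 72 of all 77 higher genes do not overlap.

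Of these 11 genes, all higher in TRAP, 10 have a promoter in the RefSeq table used here (GRCm38.p6, 250 bases before to 50 after the start); Maob was not matched. The promoters of Tph2, Fev, Slc18a2 and Slc6a4 are shown since they belong to the defining enzyme, the identity factor and the transporters of these cells. Capitals mark GGAA or its complement TTCC, the core bound by ETS factors such as FEV, and GATA or TATC, the core bound by GATA factors. The windows are chr10:115184973-115185272 (minus strand) for Tph2, chr1:74885359-74885658 (minus strand) for Fev, chr19:59260628-59260927 (plus strand) for Slc18a2 and chr11:76998347-76998646 (plus strand) for Slc6a4.
Tph2: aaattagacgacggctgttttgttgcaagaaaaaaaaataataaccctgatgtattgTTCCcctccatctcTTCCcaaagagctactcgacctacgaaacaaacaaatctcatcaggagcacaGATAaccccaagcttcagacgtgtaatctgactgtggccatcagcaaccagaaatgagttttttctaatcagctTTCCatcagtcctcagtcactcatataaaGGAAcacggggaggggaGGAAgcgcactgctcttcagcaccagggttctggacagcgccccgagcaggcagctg
Fev: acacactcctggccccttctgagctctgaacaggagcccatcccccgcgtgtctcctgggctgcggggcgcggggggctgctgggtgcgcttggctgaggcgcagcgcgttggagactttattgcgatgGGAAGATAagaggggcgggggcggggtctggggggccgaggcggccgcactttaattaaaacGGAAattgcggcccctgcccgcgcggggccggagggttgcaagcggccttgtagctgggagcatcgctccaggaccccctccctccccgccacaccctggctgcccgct
Slc18a2: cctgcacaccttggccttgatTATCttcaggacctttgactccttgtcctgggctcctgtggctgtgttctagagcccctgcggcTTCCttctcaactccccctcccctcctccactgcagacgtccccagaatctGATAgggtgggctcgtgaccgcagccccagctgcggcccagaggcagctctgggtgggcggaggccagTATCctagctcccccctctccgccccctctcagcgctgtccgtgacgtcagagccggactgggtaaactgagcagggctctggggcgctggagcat
Slc6a4: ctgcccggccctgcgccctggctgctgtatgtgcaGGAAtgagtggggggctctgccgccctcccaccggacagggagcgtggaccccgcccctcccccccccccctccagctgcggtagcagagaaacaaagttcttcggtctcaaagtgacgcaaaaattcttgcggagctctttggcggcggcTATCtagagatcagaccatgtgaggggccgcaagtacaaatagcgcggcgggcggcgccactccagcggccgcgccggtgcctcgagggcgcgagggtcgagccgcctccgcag

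Searched on both strands, GGAA occurred 5 times in the Tph2 promoter, 2 times in that of Fev and 1 time each in those of Slc18a2 and Slc6a4. GATA occurred 1 time in Tph2, Fev and Slc6a4 and 3 times in Slc18a2, and in Fev it directly follows 1 GGAA. Such short cores are common: GGAA was in 94.9% and GATA in 43.1% of the 9802 promoters of tested genes that the table holds. The longer AGATAA, which contains GATA and was searched after the data were seen, was in the promoters of Tph2, Fev, Slc18a2 and Pcbd1, 4 of the 10, against 5.79% of the 9802. Over the 62 promoters of genes higher in TRAP the share was 11.3%, and over the 60 of lower genes 6.67%. The longer ETS form CCGGAA, which contains GGAA, was in 1 of the 10 (Slc22a3), in 12.9% of the higher and 11.7% of the lower genes, against 27.1%. Ddc had neither core in its window. These are matches of letters and not measured binding.

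Receptors for serotonin itself were not among the calls. Of 10 tested, none was higher or lower, where 1.23% of all genes tested were called. Their median log2 difference was 0.24. Over the alternatives it ran from -0.19 without TRAP 1, the only change of sign, to 0.78 in the fit of all 18 libraries. Htr1a, the autoreceptor of serotonin neurons, had 76.3, 105, 66.7, 37.0 and 33.6 CPM in TRAP and 23.2, 26.2 and 16.2 CPM in input. The groups did not overlap, yet the difference of 1.52 ± 0.41 missed the threshold (edgeR adjusted p = 0.0815). Htr1b, also an autoreceptor, had a difference of 1.20 ± 0.76, and Htr3a one of -2.03 ± 1.13 (edgeR adjusted p = 0.47).

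Secretory peptides gave 2 higher genes. Scg2 and Chgb, granins packed into dense-core vesicles, were higher among 11 genes of granins and peptide processing, and the list's median was 0.42. Scg2 had 412, 426, 695, 907 and 327 CPM in TRAP and 134, 97.1 and 267 CPM in input, a log2 difference of 1.79 ± 0.36 (edgeR adjusted p = 0.0149). Chgb had 290, 348, 396, 525 and 298 CPM against 168, 90.9 and 114 CPM, a difference of 1.56 ± 0.31 (edgeR adjusted p = 0.0145). TRAP 4 was the highest for both. Scg2 passed in 5 of the 8 fits without 1 library and Chgb in 6, with the largest adjusted p of 0.103 without input 2/3 and 0.0978 without input 5. Pam, which amidates peptides, had a difference of 1.49 ± 0.39 (edgeR adjusted p = 0.0711).

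None of 17 neuropeptide precursors passed, and their median was -0.65. Trh, the precursor of thyrotropin-releasing hormone that caudal serotonin neurons make, had 26.0, 53.6, 30.6, 97.0 and 93.2 CPM in TRAP and 0.179, 2.64 and 40.4 CPM in input. Input 5 overlapped with TRAP. The log2 difference was 3.09 ± 0.77 (edgeR adjusted p = 0.0567), and without input 5 it was 4.56 (0.0111). Tac1, the precursor of substance P, had a difference of 1.17 ± 0.36 (edgeR adjusted p = 0.127), and Pomc one of -5.04 ± 1.45 (edgeR adjusted p = 0.103) at levels of at most 23.6 CPM.

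Of 18 receptors for noradrenaline, acetylcholine, dopamine and histamine, Adra1b alone was higher and none was lower (median 0.00). Adra1b, an alpha-1 adrenergic receptor through which noradrenaline excites serotonin neurons, had 75.3, 230, 209, 238 and 110 CPM in TRAP and 33.4, 43.1 and 42.9 CPM in input. The difference was 2.11 ± 0.41 (edgeR adjusted p = 0.0134). It passed in 4 of the 8 fits without 1 library, with an edgeR adjusted p of 0.0919 without input 1, 0.0689 without input 2/3, 0.0591 without input 5 and 0.0513 without TRAP 4. Of 31 receptors for peptides and hormones none passed (median 0.21), with Oprm1, the mu opioid receptor, at 2.05 ± 0.76 (edgeR adjusted p = 0.222) and Oxtr, the oxytocin receptor, at 1.87 ± 0.72 (edgeR adjusted p = 0.242).

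Slc17a8, the vesicular glutamate transporter found in many serotonin neurons, had 31.0, 27.2, 39.4, 45.9 and 8.21 CPM in TRAP and 0.179, 7.84 and 1.24 CPM in input. The groups were just apart, and the log2 difference of 3.36 ± 0.92 did not pass (edgeR adjusted p = 0.0844). Without input 2/3, the input with the most Slc17a8, it was 5.59 and passed (0.0315). Celf6, the gene knocked out elsewhere in the study, had 150, 188, 173, 119 and 86.7 CPM in wild-type TRAP and 33.9, 15.6 and 108 CPM in input, a difference of 1.63 ± 0.52 (edgeR adjusted p = 0.143). Input 5 lay within the TRAP range, and without it the difference was 2.80 (edgeR adjusted p = 0.00385). Rpl10a, whose protein carries the tag, had 9.06, 17.9, 14.6, 38.3 and 45.4 CPM against 8.57, 10.9 and 8.71 CPM, a difference of 1.05 ± 0.62 (edgeR adjusted p = 0.505). Reads of the transgene and of the gene cannot be told apart in these counts.

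The most abundant enriched RNAs included that of the growth cone gene Gap43. Per kb of exon, the highest TRAP levels among the 77 higher genes were those of Gap43 (2040 CPM per kb, rank 6 of all genes in TRAP and 33 in input) and Gchfr (1520 CPM per kb, rank 11 against 2581). Slc6a4 held rank 19 in TRAP at 1140 CPM per kb and rank 3262 in input. Gap43 had 2070, 3210, 3000, 2000 and 2970 CPM in TRAP and 1420, 1060 and 631 CPM in input, a log2 difference of 1.43 ± 0.26 (edgeR adjusted p = 0.00941). Leaving out input 5 brought its difference to 1.17 and ended the call (edgeR adjusted p = 0.0738), as did leaving out input 2/3 (0.0563). Uchl1, an abundant neuronal ubiquitin hydrolase whose exons overlap Uchl1os, had a difference of 1.09 ± 0.26 (edgeR adjusted p = 0.0482) and passed in 1 of the 8 fits without 1 library, with up to 0.174 without input 1. Ngfrap1, an X-linked member of the Bex family, had 704, 1260, 1100, 781 and 970 CPM against 347, 277 and 280 CPM, a difference of 1.69 ± 0.26 (edgeR adjusted p = 0.00247), and passed in all 8. Bex2 of the same family had a difference of 1.24 ± 0.26 (edgeR adjusted p = 0.0205) and passed in 3, with 0.113 without input 1. 6330403K07Rik (1.4 ± 0.25, edgeR adjusted p = 0.00827) and Ctxn1, a neuronal membrane protein gene (1.55 ± 0.30, edgeR adjusted p = 0.0134), complete the 8 genes with the highest levels per kb. The former lost its call without input 1 (0.0702) and without input 2/3, the latter without input 2/3 (0.0782), input 5 (0.0715) and input 1 (0.0615).

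Among 48 axon guidance and adhesion genes, Gap43 and Pcdhac2 were higher and Sema6a was lower (median -0.05). Pcdhac2, the protocadherin isoform with which serotonin axons space themselves, had 73.9, 114, 218, 176 and 67.1 CPM in TRAP and 22.9, 12.6 and 26.8 CPM in input, a log2 difference of 2.66 ± 0.47 (edgeR adjusted p = 0.0073). Its counted exons overlap those of other Pcdha genes, so reads of the shared exons cannot be assigned to 1 of them. The call was lost without input 2/3 (edgeR adjusted p = 0.0694). Sema6a had 139, 87.8, 95.3, 252 and 197 CPM against 398, 359 and 394 CPM, a difference of -1.48 ± 0.28 (edgeR adjusted p = 0.0133), with a call lost without input 1 (0.0969), input 2/3 (0.0707) and TRAP 3 (0.0642).

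Several of the largest differences belonged to genes at low levels in input. Cryba2, a beta-crystallin gene that lies 4525 bases from Fev on chromosome 1, had 19.3, 54.4, 51.1, 37.5 and 35.2 CPM in TRAP and 0.179, 0.681 and 0.311 CPM in input, a log2 difference of 6.48 ± 0.78 (edgeR adjusted p = 0.000161), and passed in all 8 fits without 1 library. 1700042O10Rik, whose span overlaps that of Ddc on chromosome 11 with no overlap of counted exons, had 13.3 to 57.0 CPM against at most 3.66 CPM, a difference of 4.68 ± 0.89 (edgeR adjusted p = 0.0133). Its call was lost without input 1 (0.0733) and TRAP 3 (0.0502). Slc10a4, a vesicular protein of monoamine neurons, had 94.6, 111, 112, 124 and 40.3 CPM against 1.07, 4.69 and 13.4 CPM, a difference of 4.12 ± 0.66 (edgeR adjusted p = 0.00298), and passed in all 8. Trim21 (6.73 ± 1.54, edgeR adjusted p = 0.0374), Hmx2 (6.29 ± 1.42, 0.035) and Apoa2 (6.05 ± 1.43, 0.0442) each had 0 CPM in inputs 1 and 5 and at most 0.341 CPM in input 2/3, so their fitted differences depend on the prior count. Each of the 3 passed in 1 of the 8 fits without 1 library.

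Other genes that passed in all 8 of these fits lie outside the naming rule and were chosen after their values were seen. Ylpm1, which encodes a nuclear protein, had 1770, 1930, 1080, 1200 and 1190 CPM in TRAP and 86.9, 112 and 166 CPM in input, a log2 difference of 3.56 ± 0.32 (edgeR adjusted p = 5.62e-06). Fam169a had 764, 329, 555, 1520 and 986 CPM against 60.7, 82.2 and 39.2 CPM, a difference of 3.55 ± 0.43 (edgeR adjusted p = 0.000165), and shares exon positions with Nsa2. In it TRAP 2 was the lowest library and TRAP 4 the highest, unlike Fev, for which TRAP 2 was the highest. Dnajc12, a co-chaperone of the aromatic amino acid hydroxylases, had 138, 328, 151, 129 and 144 CPM against 7.5, 21.9 and 11.2 CPM, a difference of 3.73 ± 0.45 (edgeR adjusted p = 0.000165). Peg10, an imprinted gene derived from a retrotransposon, had 1790, 2540, 2240, 901 and 806 CPM against 270, 214 and 312 CPM, a difference of 2.51 ± 0.33 (edgeR adjusted p = 0.000454). Chromatin and transcription genes were Bahcc1 (3.35 ± 0.45), Gse1 (2.04 ± 0.32) and the X-linked corepressor Bcor (2.32 ± 0.35) and cofactor Cited1 (3.14 ± 0.39). Signalling genes were Irs4, an X-linked insulin receptor substrate (2.46 ± 0.30), Pde2a, a phosphodiesterase (2.52 ± 0.33), and Dusp26, a phosphatase (2.18 ± 0.34). Over the 77 higher genes, 9 were X-linked (11.7%), against 2 of the 83 lower genes (2.41%) and 3.57% of all genes tested. The higher genes had a median exon length of 2272 bases, the lower ones of 4129 bases and all tested genes of 3075 bases.

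Part of the glial markers was lower in TRAP. Of 18 markers of the oligodendrocyte lineage, Mbp, Olig1, Olig2 and Bcas1 were lower and none was higher, with a median log2 difference of -1.34. Mbp, a major protein of myelin, had 1240, 640, 682, 2140 and 2180 CPM in TRAP and 4020, 3360 and 7680 CPM in input, a difference of -2.01 ± 0.23 (edgeR adjusted p = 8.89e-05). TRAP 2 and 3 were the lowest, and every TRAP library lay below every input. Olig1, a transcription factor of the lineage, had 117, 61.5, 48.0, 157 and 180 CPM against 325, 284 and 449 CPM, a difference of -1.81 ± 0.30 (edgeR adjusted p = 0.00453). Both passed in all 8 fits without 1 library. Olig2, the neighbouring factor gene 41091 bases away, had a difference of -1.85 ± 0.40 (edgeR adjusted p = 0.024) and passed in 3, and Bcas1, a myelin protein gene, one of -1.73 ± 0.38 (0.0309) and passed in 1. Both lost most clearly without input 1 (edgeR adjusted p of 0.188 and 0.178). Exons of Bcas1 overlap Bcas1os2. Cnp, a further myelin gene, had a difference of -0.99 ± 0.32 (edgeR adjusted p = 0.155) and did not pass. The markers remained well above 0 in TRAP, with a sum of 3490, 1750, 1750, 7570 and 7930 CPM against 8570, 6590 and 16500 CPM in input, so TRAP 4 and 5 overlapped with input 2/3.

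Of 15 markers of astrocytes and radial glia, Fabp7, Glul and Sox9 were lower and none was higher (median -1.05). Fabp7, a fatty acid binding protein of radial glia, had 483, 136, 190, 210 and 177 CPM in TRAP and 1230, 835 and 652 CPM in input, a log2 difference of -1.87 ± 0.33 (edgeR adjusted p = 0.00705). TRAP 1 stood above the other TRAP libraries. Glul, which makes glutamine from glutamate and whose exons overlap Mir8114, had 176, 68.8, 98.9, 146 and 150 CPM against 356, 286 and 493 CPM, a difference of -1.58 ± 0.29 (edgeR adjusted p = 0.0106). Sox9, a glial transcription factor, had 8.82, 5.06, 7.37, 19.0 and 20.5 CPM against 51.1, 47.2 and 67.5 CPM, a difference of -2.45 ± 0.47 (edgeR adjusted p = 0.0134). All 3 were separated from input. Fabp7 lost its call without input 1 (edgeR adjusted p = 0.0687), Glul without input 5 (0.0967) and input 1 (0.0755), and Sox9 without input 1 (0.0804), input 2/3 (0.072) and input 5 (0.0535). Gfap, an intermediate filament of astrocytes, did not pass (-1.05 ± 0.36, edgeR adjusted p = 0.171). Slc6a11, a GABA transporter of astrocytes, and Apoe, their apolipoprotein, were outside the fixed lists and were chosen after their values were seen. They had differences of -2.20 ± 0.35 (edgeR adjusted p = 0.00259) and -1.95 ± 0.34 (0.00705). Slc6a11 passed in all 8 fits, and Apoe lost its call without input 1 (0.0998) and input 5 (0.0656).

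Igf2 and Ptgds, made by meningeal cells, were the lower ones among 10 fibroblast and meningeal markers (median -1.32). Igf2, which overlaps Igf2os, had 190, 42.5, 132, 215 and 206 CPM in TRAP and 597, 608 and 408 CPM in input, a log2 difference of -1.87 ± 0.38 (edgeR adjusted p = 0.0183). Ptgds had 346, 78.0, 201, 404 and 196 CPM against 891, 568 and 860 CPM, a difference of -1.71 ± 0.36 (edgeR adjusted p = 0.024). TRAP 2 had the least of both. Their calls were lost without input 1 (edgeR adjusted p of 0.0998 and 0.159) and without some other libraries, so that they passed in 5 and 3 of the 8 fits. Markers of microglia (11 tested, median -1.11), of endothelial and mural cells (12 tested, -0.04) and of ependyma and choroid plexus (9 tested, -1.24) gave no call. The microglial median ran from -1.49 to -0.28 over the alternatives, and the member with the smallest p lay on the other side: Cd68, a lysosomal protein gene of macrophages, had 19.1, 22.5, 2.88, 12.1 and 8.93 CPM in TRAP and 1.43, 0.341 and 0.933 CPM in input. The groups did not overlap, and the difference of 3.88 ± 1.08 did not pass (edgeR adjusted p = 0.0928). Of the choroid plexus, Ttr had 1410, 132, 7.19, 1830 and 318 CPM in TRAP and 4050, 372 and 3530 CPM in input, so that it spread more within a kind of RNA than between the 2 (-1.97 ± 0.90, edgeR adjusted p = 0.349). Of 5 blood genes 1 was tested, Alas2, at -0.85 ± 1.82 (edgeR adjusted p = 0.899), and the 4 globin genes were at 0 in all 8 libraries. The counts were made without multi-mapping options, and whether that left globin reads uncounted was not tested.

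**Figure D3:**
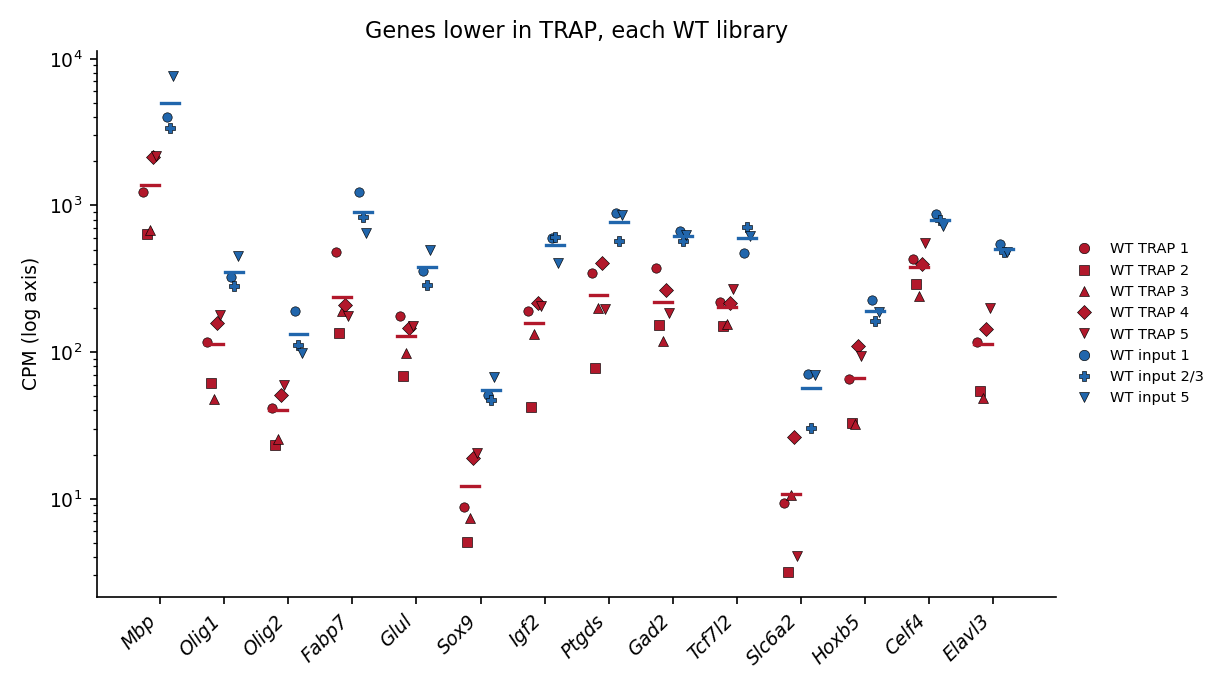
Levels (CPM, log axis) of 14 genes lower in TRAP in each wild-type library, with TRAP in red and input in blue, symbols for the replicate and bars for the group mean. TRAP and input do not overlap in any of the 14, and TRAP 2 and 3 are often lowest, as for Mbp at 640 and 682 CPM. The genes were picked by a test on these same libraries, and 67 of all 83 lower genes do not overlap.

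Markers of other neurons were lower in part. Gad2, a GABA-synthesizing enzyme, had 376, 153, 119, 266 and 185 CPM in TRAP and 669, 570 and 630 CPM in input, a log2 difference of -1.51 ± 0.32 (edgeR adjusted p = 0.0219). It was the lower one of 8 GABA and glycine markers (median -0.92), of which Gata2, described above as a serotonin gene too, was the higher one. Gad1, the other such enzyme, had a difference of -0.39 ± 0.37 (edgeR adjusted p = 0.715). Slc6a2, the noradrenaline transporter, had 9.30, 3.16, 10.6, 26.4 and 4.10 CPM against 70.5, 30.2 and 69.7 CPM, a difference of -2.53 ± 0.60 (edgeR adjusted p = 0.0442), and was the lower one of 7 dopamine and noradrenaline markers (median -0.58). Neurod2, a factor of glutamate neurons, was the lower one of 9 glutamate markers (median -1.15), at -2.79 ± 0.67 (edgeR adjusted p = 0.0482). These calls depended on single libraries. Gad2 and Neurod2 passed in 1 and Slc6a2 in 2 of the 8 fits without 1 library, with an edgeR adjusted p of up to 0.126 and 0.248 without input 1 for Gad2 and Slc6a2 and 0.207 without input 5 for Neurod2.

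Slc6a4 is known to be switched on for a time after birth in sensory neurons of the thalamus, so markers of thalamic relay neurons were read as well. Of 10 tested, Tcf7l2 was lower and none was higher (median -0.68). Tcf7l2, a Wnt pathway factor abundant in thalamus, had 221, 151, 155, 216 and 271 CPM in TRAP and 477, 716 and 617 CPM in input, a log2 difference of -1.62 ± 0.26 (edgeR adjusted p = 0.00274), and passed in all 8 fits without 1 library. Which cells of the tissue gave its reads was not tested. Summed over the 10 genes, TRAP held 604, 452, 449, 599 and 624 CPM and input 910, 1260 and 1080 CPM, with no overlap. Tcf7l2 alone made up 477, 716 and 617 CPM of the input sums, so the sum is no separate result from its call. Of the 10 genes, 2 had a positive difference, the highest at 1.58. None of 5 cholinergic (median -0.26) and none of 8 cerebellar markers (median -0.50) passed. The 11 markers of serotonin neurons summed to 6430, 10600, 9140, 6900 and 4260 CPM in TRAP and 287, 196 and 330 CPM in input, with 8 higher, none lower and a median difference of 4.34. TRAP 2 and 3, which had the highest serotonin sums, had the lowest oligodendrocyte, astrocyte and GABA sums of the 5 TRAP libraries. The part of such markers in the levels of other genes was not tested.

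**Figure D4:**
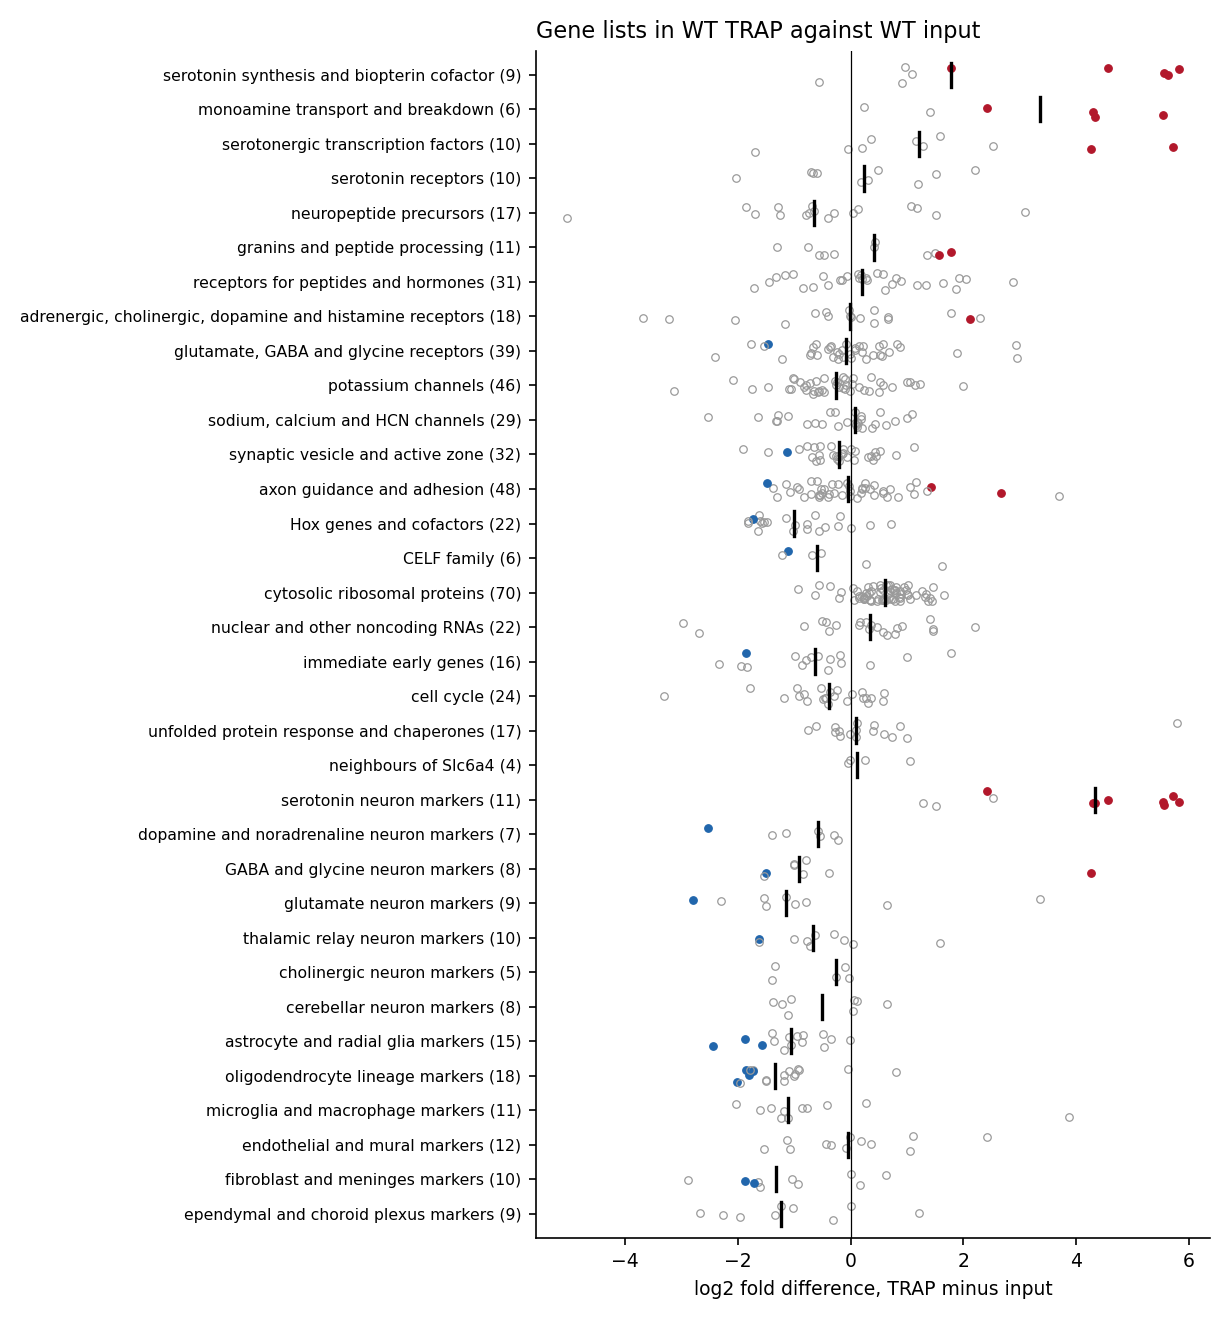
Each point is a tested member of a gene list, placed by its log2 difference, TRAP minus input; the number tested stands in brackets and the black bar is the median. Filled red points passed as higher, filled blue points as lower, and open points did not pass. Lists of serotonin synthesis, monoamine transport and serotonin neuron markers lie farthest right (medians 1.78, 3.36 and 4.34), and most glial lists lie left of 0.

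Among transcription factors of position, Hox genes and their cofactors had a median of -1.0 over 22 tested, with Hoxb5 lower and none higher. Hoxb5, expressed in the caudal hindbrain, had 65.5, 32.7, 32.2, 110 and 94.4 CPM in TRAP and 225, 163 and 187 CPM in input, a log2 difference of -1.74 ± 0.36 (edgeR adjusted p = 0.0183). The call was lost without input 1 (edgeR adjusted p = 0.147), TRAP 3 (0.0807), input 2/3 (0.0764) and TRAP 2 (0.0543). Of the CELF family of RNA-binding proteins, Celf4 was lower and none was higher among 6 (median -0.60). Celf4 had 432, 289, 241, 401 and 552 CPM against 876, 800 and 721 CPM, a difference of -1.12 ± 0.27 (edgeR adjusted p = 0.0447), and passed in 2 of the 8 fits, with up to 0.222 without input 1.

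Neuronal genes of wider use also included lower ones. Elavl3, a neuronal RNA-binding protein gene, had 118, 54.6, 48.6, 143 and 201 CPM in TRAP and 543, 481 and 484 CPM in input, a log2 difference of -2.37 ± 0.34 (edgeR adjusted p = 0.00115). Hivep3, a zinc finger factor, had 66.3, 41.1, 29.7, 21.5 and 29.0 CPM against 200, 184 and 153 CPM, a difference of -2.26 ± 0.33 (edgeR adjusted p = 0.00144). Both passed in all 8 fits without 1 library, as did Map1a, a microtubule-associated protein chosen after its values were seen (-1.49 ± 0.23, edgeR adjusted p = 0.00193). Exons of Map1a overlap Ppip5k1. Grin1, the obligatory NMDA receptor subunit, whose exons overlap Grin1os and Lrrc26, was the lower one of 39 receptors for glutamate, GABA and glycine, at -1.46 ± 0.28 (edgeR adjusted p = 0.0134; 0.176 without input 5, which had 461 CPM against 200 and 119 CPM in the other inputs). Bsn, a scaffold of the active zone, was the lower one of 32 synaptic vesicle genes, at -1.13 ± 0.26 (edgeR adjusted p = 0.0439; 0.188 without input 1). Egr1, an immediate early gene, was the lower one of 16, at -1.85 ± 0.38 (edgeR adjusted p = 0.0205, and 0.181 without input 5). The single lower genes made up 2.56% of the 39 receptors, 3.12% of the 32 vesicle genes and 6.25% of the 16 immediate early genes. Over all genes tested, 0.639% were lower. None of 46 potassium channels (median -0.26) or 29 sodium, calcium and HCN channels (median 0.08) passed, and 1.23% of all genes tested did. At that share, no call or 1 call in a list of this size says little about the list.

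Of the lower genes with the largest differences, several were rare or had calls that 1 library ended. Cnn1, a calponin of smooth muscle, was at 0 in all 5 TRAP libraries and at 12.1, 9.03 and 4.36 CPM in input. With a floor of 3 counts over the TRAP libraries together, 0.12 CPM, it was at least 68.9-fold lower. Elf4, an ETS factor, had at most 0.494 CPM in TRAP and 25.2, 10.1 and 32.0 CPM in input (-6.13 ± 0.99, edgeR adjusted p = 0.00327). Dgkg, a diacylglycerol kinase, had 46.0, 24.8, 21.6, 19.7 and 39.6 CPM in TRAP and 66.2, 56.1 and 674 CPM in input. Input 5 was far above the others, and without it the difference of -2.45 ± 0.57 (edgeR adjusted p = 0.0439) became -0.98 (0.526). Gjb1, a connexin of oligodendrocytes, had 117 CPM in input 5 against 9.64 and 18 CPM in the other inputs. Its difference of -2.52 ± 0.52 (edgeR adjusted p = 0.0183) was -2.84 without that library but no longer passed (0.153). Nfia, a glial and neuronal nuclear factor, had 102, 7.27, 21.9, 54.5 and 59.4 CPM against 204, 256 and 230 CPM, a difference of -2.26 ± 0.52 (edgeR adjusted p = 0.0401), and passed in 2 of the 8 fits (up to 0.141 without input 5). Tekt4, Zfp703, Cacng2, Pld1 and Tmbim1 completed the 15 largest, with differences of -6.35, -2.21, -2.28, -2.48 and -2.56, and passed in 0, 2, 4, 2 and 6 of the 8 fits.

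Lists of general cell functions gave no calls. Over all genes tested 1.23% were called, so this says little about the lists. Of 70 cytosolic ribosomal protein genes none passed, though 64 had a positive difference (median 0.61, against 0.02 over all genes). Their sum was 3190, 5670, 5080, 8100 and 10800 CPM in TRAP and 4000, 3490 and 4310 CPM in input, so TRAP 1 lay below all 3 inputs and the run 2 libraries, TRAP 4 and 5, were highest. Rps15 had the smallest p of them, at 1.41 ± 0.35 (edgeR adjusted p = 0.0529). Neither 24 cell cycle genes (median -0.38), 17 genes of the unfolded protein response and chaperones (0.09), 22 nuclear and other noncoding RNAs (0.35) nor the 4 tested neighbours of Slc6a4 on chromosome 11 (0.12) gave a call. Malat1, a nuclear noncoding RNA, had 4140, 1520, 1760, 813 and 1220 CPM in TRAP and 1980, 6340 and 1050 CPM in input (-0.51 ± 0.36, edgeR adjusted p = 0.585), and Blmh, next to Slc6a4, had a difference of 1.06 ± 0.29 (edgeR adjusted p = 0.0829). Rpph1 and Rmrp, RNAs of the ribonucleases P and MRP chosen after their values were seen, were lower at -1.97 ± 0.31 (edgeR adjusted p = 0.00259) and -1.68 ± 0.36 (0.0248). Input 5 held 1180 CPM of Rpph1 and 266 CPM of Rmrp, against 162 to 231 and 36.8 to 40.5 CPM in the other inputs. TRAP 1 to 5 held 70.8, 22.5, 58.8, 320 and 280 CPM of Rpph1 and 16.2, 7.91, 7.19, 117 and 99.2 CPM of Rmrp. For both, TRAP 4 and 5, of run 2 like input 5, thus lay above inputs 1 and 2/3. Rpph1 passed in all 8 fits without 1 library and Rmrp in 1.

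The wild-type calls were then read in the libraries labelled KO, which share no sample with them. Celf6 itself, over all 18 libraries normalized together, was at 85.4 to 183 CPM in wild-type TRAP and at 114, 21.2, 56.5, 27.0 and 37.2 CPM in the libraries labelled KO TRAP 1 to 5, so that the library labelled KO TRAP 1 lay within the wild-type range. Input held 33.2, 15.6 and 105 CPM in wild type and 4.83 to 22.5 CPM in the libraries labelled KO, of which inputs 2, 3 and 5 lay above wild-type input 2/3. The counts span the whole gene and do not show which exons they come from. In these libraries 79 of 12273 genes were higher in TRAP (0.644%) and 45 lower (0.367%). Of the 77 genes higher in wild-type TRAP, 76 were tested, 74 had a positive difference (51.1% of all genes) and 47 were called higher, with medians of 2.08 in wild type and 1.90 in KO. Of the 83 lower genes, 80 were tested, all 80 had a negative difference (48.9% of all genes) and 22 were called lower, with medians of -1.69 and -1.23. None was called in the opposite direction. The 69 shared calls were 43.1% of the wild-type and 55.6% of the KO calls, and without the library labelled KO TRAP 1 the shared calls numbered 66. They numbered 55 to 80 over the fits without 1 KO library, 105 in DESeq2 and 96 with no expression filter.

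Tph2 had 2540, 689, 1370, 2450 and 2030 CPM in KO TRAP and 16.9 to 57.3 CPM in KO input, a log2 difference of 5.95 (edgeR adjusted p = 1.73e-07) beside 5.83 in wild type. Slc6a4 had 5.22 beside 5.54, Fev 5.36 beside 5.72, Ddc 4.58 beside 4.57 and Mbp -2.10 beside -2.01. Some genes that missed the threshold in wild type passed in the libraries labelled KO: Lmx1b (4.48, edgeR adjusted p = 0.00584), Maoa (1.52, 0.0129), Pam (2.06, 0.00821), Trh (4.68, 0.00202) and En1 (2.26, 0.0429). That difference in calls does not by itself show a difference between genotypes. Apoa2 and Usp21 were the 2 higher genes with a negative KO difference (-0.07 and -0.04). Usp21, a deubiquitinating enzyme gene chosen after its values were seen, had 40.8 to 111 CPM in wild-type TRAP against 5.36 to 32.3 CPM in input, and 13.7 to 86.1 CPM in KO TRAP against 35.1 to 73.5 CPM in KO input.

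**Figure D5:**
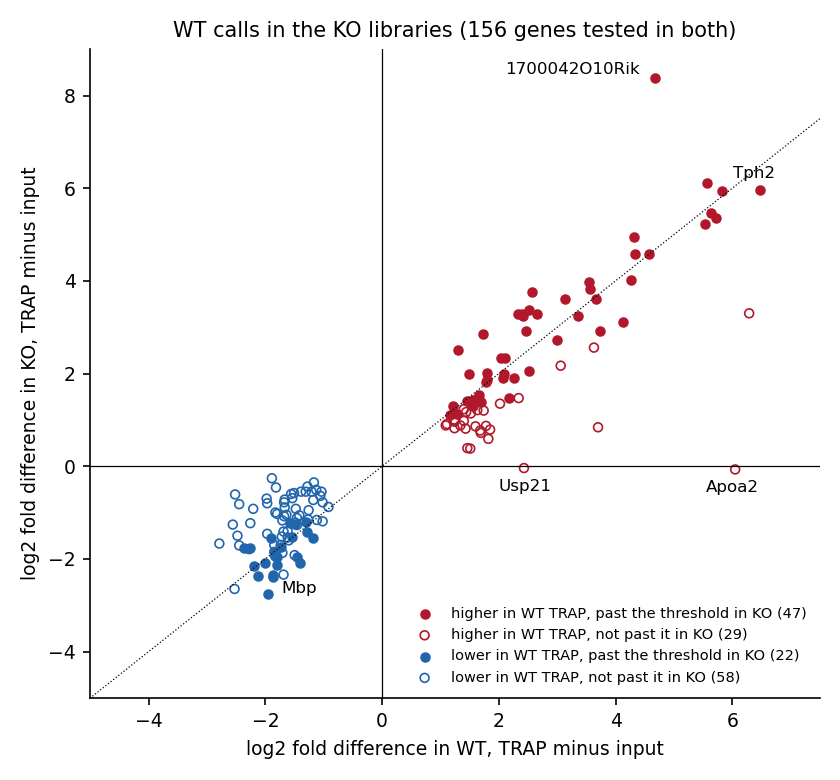
The log2 difference, TRAP minus input, in wild type (x axis) and in the libraries labelled KO (y axis) for 156 of the 160 wild-type calls, those tested in both. Filled points passed in KO as well (47 higher in red, 22 lower in blue), open points did not, and the dotted line marks equal differences. All but Apoa2 and Usp21 have the same sign in both.

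The test of the difference between genotypes, KO minus wild type, called 0 of 14261 genes by edgeR (0%), with 554 at an unadjusted p below 0.05. DESeq2 called 4 (Inpp5d, Mfsd11, Fam221a and Gnb3). The smallest p in edgeR belonged to Mfsd11, a membrane protein gene of the transporter superfamily, with 11.2, 20.4, 15.3, 15.3 and 28.7 CPM in wild-type TRAP against 6.07, 5.2 and 3.42 CPM in input, and 1.65 to 4.48 CPM in KO TRAP against 8.10 to 25.5 CPM in KO input. The differences pointed in opposite directions, 1.85 and -2.52, at an adjusted p of 1 for their contrast in edgeR. Inpp5d, Commd7 and Ica1, with differences of 5.19, 1.49 and -1.03 in wild type and -3.87, -0.66 and 1.15 in KO, were among the next by p. Of Inpp5d, KO input 1 held 40 CPM and the other KO inputs 0.737 to 5.24 CPM.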

How the data were processed

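The authors deposited raw counts per gene for each library, made with featureCounts 1.4.6-p5 on exons of a UCSC mm10 annotation, without strand or multi-mapping options, per the file headers. Reads were trimmed with Trimmomatic and aligned with STAR, per the submitters' processing notes. All counts entered as deposited. The counts of inputs 2 and 3 were added.

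Wild-type TRAP and input (5 and 3 libraries after the sum) were compared in edgeR 4.0.16 (R 4.3.3) with filterByExpr, TMM scaling, sequencing run as a covariate, the quasi-likelihood F test and Benjamini-Hochberg adjustment over all 12995 genes at 0.05. The SE is the size of the log2 difference divided by the square root of F. CPM are TMM-normalized. KO libraries were fitted alone, and the genotype contrast was fitted over 18 libraries. DESeq2 1.42.0 and 20 other settings were alternatives. Counting error alone sets a floor of 3 counts.

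The members and the 35 gene lists were chosen with earlier results of these data known. Genes named were the 15 largest differences each way (mean of at least 5 CPM), up to 8 called members of each list or the 2 with the smallest p, a fixed set around serotonin, the 8 highest per kb and the 5 smallest p between genotypes. Promoters came from RefSeq (GRCm38.p6). The fit was tested on simulated data. Some single genes are not reported here.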

Additional observations from a re-analysis of the deposited data

Results flagged for a closer look

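Of the 98 named genes, 5 (5.1%) had 1 wild-type TRAP library far from the other 4, with a gap above 0.71 of the whole range of the group; chance gives about 1 in 20. Slc18a3, the vesicular acetylcholine transporter, stood at 36 CPM in TRAP 4 and at 0 to 4.29 CPM in the others, a gap of 0.881 of the range. Fabp7 stood at 483 CPM in TRAP 1 and at 136 to 210 CPM in the others (0.787). Hmx2, a homeobox gene, was at 31 CPM in TRAP 2 and at 2.41 to 10.1 CPM in the others (0.731). Maob was at 166 CPM in TRAP 2 and at 75.3 to 100 CPM in the others (0.728). Malat1 was at 4140 CPM in TRAP 1 and at 813 to 1760 CPM in the others (0.715).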

How the results depend on the processing

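The counts of wild-type calls, 77 higher and 83 lower, became 339 and 356 in DESeq2, 203 and 283 with no expression filter, 175 and 175 with inputs 2 and 3 kept apart, 41 and 29 without the sequencing run as a term, 58 and 37 in the fit of 18 libraries, 45 and 29 with the repeat runs of replicate 3, and 21 and 2 with the input labelled an outlier added. They ran from 33 to 164 and from 11 to 206 without 1 library each, with 34 and 29 without input 2/3, and the cause was not tested. RLE gave 78 and 82, upper-quartile scaling 85 and 76, and a minimum of 5 CPM 91 and 80. The share of higher calls, 48.1%, became 91.3% with the outlier, 75.0% without input 1, 63.2% without input 5, 61.1% in the fit of 18 libraries, 60.8% with the repeat runs, 59.0% without TRAP 3 and 58.6% without the run. The 160 genes kept their sign in every setting except 2 of 157 with the outlier; 20 higher and 2 lower genes (Mbp and Map1a) passed in all 21 alternatives.

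The replicate block, with the replicate number as a term, gave 45 higher and 44 lower genes, 83 of them among the 160, without Adra1b (adjusted p = 0.0514), Chgb (0.0543) and Scg2 (0.114), for example. The labels do not say that a number marks 1 brain. For the pairing, deviations of same-numbered libraries had r of -0.008 to 0.052, and 1 of 3 inputs was closest to its own number. In sex-linked RNA, TRAP 1 and input 1 both held mainly Xist, and TRAP 2, TRAP 3 and input 2/3 mainly Y-linked RNA. TRAP 5 and input 5 differed. In KO the 79 and 45 calls became 260 and 335 in DESeq2, 184 and 170 with no filter, and 84 and 68 with the replicate block, and ran from 57 to 99 and from 22 to 90 without 1 library each. The genotype contrast gave 0 calls, 4 in DESeq2 and 3 with no filter.

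Signs changed for genes that had not passed: Cpd (-0.02 without TRAP 3, -0.05 to 0.45 over the fits without 1 library other than input 2/3, and 0.59 without that one), Chat (-1.98 to 0.04), Malat1 (0.16 without input 2/3), Blmh (-0.17 with the outlier) and Alas2 (1.14 without the run, 1.07 with 18 libraries, 1.01 with repeat runs, 0.48 with the block, 0.05 without TRAP 2, and -2.12 to 2.81 over all fits without 1 library). Uchl1 (-0.44) and Hras (-0.02) changed sign with the outlier. The outlier held 325072 counts, which limits what it can show.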
